A study of Bos taurus with 57 samples.

Results

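The 100 genes described here had high read counts in both the arcuate nucleus and the testes of bull calves and low read counts in the anterior pituitary. They were chosen from the high plane libraries alone, among 24616 genes counted. The level of a gene is its count per 1000000 reads of the library (CPM), and the mean CPM was taken over the high plane libraries of each tissue. For each gene the smaller of the means in the arcuate nucleus and the testes, plus 0.5, was divided by the mean in the anterior pituitary plus 0.5. The 100 genes with the largest of these ratios were kept, among the 21478 genes whose levels in the arcuate nucleus and the testes lay within 4-fold of each other. The difference between the tissues on the high plane is therefore a property of the selection, and no test was run on it.

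The libraries came from male Holstein Friesian calves reared under 2 feeding levels, called high and low plane of nutrition, and killed at 126 days of age. The labels give an overall growth of 1.08 kg per day on the high plane and 0.5 kg per day on the low plane, while the design text of the series gives 1.2 kg per day for the high plane. The arcuate nucleus had 10 libraries on each plane, the anterior pituitary 9 on the high and 10 on the low plane, and the testes 10 on the high and 8 on the low plane. Calves on both planes were fed milk replacer and concentrates, so the low plane is a restricted diet and not a fast. The testes samples were parenchyma, and the arcuate nucleus samples were pieces of hypothalamus cut out around the nucleus, which hold neighbouring tissue as well. Each library is bulk RNA of a tissue, so that fewer cells of a type and less RNA per cell cannot be told apart. The labels name neither the calf nor a batch for any library. By the study's methods the tissues came from the same calves, so libraries within a tissue are separate calves, while the tests between tissues treat libraries of shared calves as independent.

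The arcuate nucleus, the anterior pituitary and the testes are stations of one hormonal axis. The arcuate nucleus, at the base of the hypothalamus, holds neurons that sense the energy state of the body and act on the neurons that release gonadotropin releasing hormone. The anterior pituitary answers with luteinizing hormone and follicle stimulating hormone, which act on the Leydig and Sertoli cells of the testes. Brain and testes are also known for expressing many genes in common, among them genes of microtubules, cilia and vesicle traffic. Whether the 100 genes belong to such groups could not be read from the data used here, since the files list Ensembl identifiers without gene names. None of the identifiers could be paired with a symbol, so the genes are given by identifier, and neither their functions nor the marker genes of the tissues could be checked.

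The total count per library ran from 898979 reads in the arcuate nucleus library C22 to 32009433 reads, and the median of a group from 14180871 to 18655866 reads. A set of 13 of the 57 libraries stood apart from the others of their tissue. In these, the deviations of all genes above 3 CPM from the tissue median had an interquartile range of 0.993 to 3.27 on the log2 scale, against 0.194 to 0.552 in the other 44 libraries. They comprise 3 high plane and 2 low plane anterior pituitary libraries, 2 low plane libraries of the arcuate nucleus (C6 and C33), and 1 high plane (B42) and 5 low plane libraries of the testes. In the testes, standing apart and diet thus go together, with 5 of 8 low plane libraries and 1 of 10 high plane libraries. The limit of 0.75 that separates them was set after the data were seen, and the counts of genes called are given with and without them. The testes library titled A48 carries the letter of the pituitary libraries in its title, and was kept as testes by its tissue label. Over all genes it did not stand apart from the other testes libraries, with an interquartile range of 0.364.

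The selected genes spanned a wide range of levels. On the high plane, which chose them, the ratio had a median of 11.6 and ran from 7.18 to 173, and 64 genes exceeded 10. The last 3 genes inside the limit had ratios of 7.388, 7.345 and 7.18, and the first 3 outside it 7.161, 7.145 and 7.004. In that diet group the median of the 100 mean levels was 33.6 CPM in arcuate nucleus libraries, 40.1 CPM in those of the testes and 1.19 CPM in the anterior pituitary. As a group the genes took up a median of 1.10% of the reads of an arcuate nucleus library and 1.34% of a testes library, against 0.0457% of an anterior pituitary library. The largest ratio belonged to ENSBTAG00000003470, with 329 ± 59.3 CPM in the arcuate nucleus (SD, n = 10), 289 ± 106 CPM in the testes (SD, n = 10) and 1.18 ± 0.481 CPM in the anterior pituitary (SD, n = 9). The lowest ratio, just inside the limit, was that of ENSBTAG00000014906, with high plane means of 64.8 CPM in the arcuate nucleus, 244 CPM in the testes and 8.60 CPM in the anterior pituitary.

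The low plane libraries had no part in the choice, so they give an independent measure of the same tissues, in other samples. There the genes were again abundant in the arcuate nucleus and the testes and scarce in the anterior pituitary. The median of the 100 mean levels was 28.7 CPM in the arcuate nucleus (2.90 to 1339 CPM), 31.9 CPM in the testes (1.76 to 1165 CPM) and 1.05 CPM in the anterior pituitary (0.0253 to 43.96 CPM). In the anterior pituitary, 46 of the 100 genes had a mean below 1 CPM and 21 had at least 1 library with no read. The ratio used for the selection ran from 3.45 to 126 on the low plane, with a median of 9.99, and 96 of the 100 genes exceeded 4. Without the libraries that stand apart its median was 12.7.

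**Figure D1:**
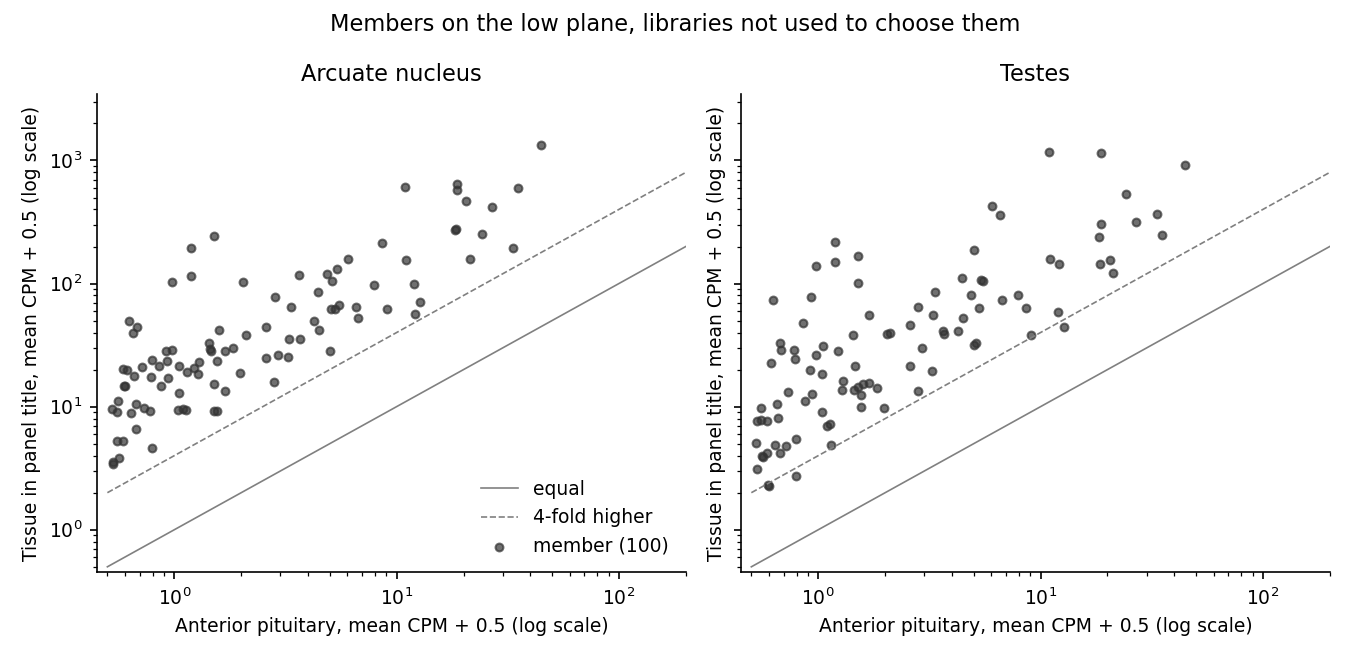
Mean CPM plus 0.5 of each of the 100 genes over the low plane libraries, in the anterior pituitary (horizontal, log scale) against the arcuate nucleus (left, vertical, log scale) and the testes (right). Every point lies above the solid line of equal levels, and 96 of the 100 genes lie above the dashed 4-fold line in both panels.

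All 100 genes were called higher in the arcuate nucleus than in the anterior pituitary on the low plane, by the edgeR quasi-likelihood test with Benjamini-Hochberg adjustment over 15808 genes, at an adjusted p below 0.05. Of all genes tested, 27.2% were called higher in this comparison. The log2 fold change of the 100 had a median of 4.64 and ran from 2.13 to 8.48, while the median over all genes was 0.0044. For 69 of the 100, every arcuate nucleus library exceeded every anterior pituitary library, which held for 9.47% of all genes. Without the libraries that stand apart all 100 were called higher, against 36.8% of all genes. In that smaller set of 8 and 8 libraries the groups did not overlap for any of the 100, against 27.6% of the genes above 1 CPM in any of these libraries.

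In the testes, 99 of the 100 genes were called higher than in the anterior pituitary on the low plane, where 30.4% of all genes were. Their log2 fold change had a median of 4.13 and ran from 1.49 to 8.91. The groups did not overlap for 81 genes, against 15.8% of all genes. Without the libraries that stand apart, which leaves 3 testes and 8 anterior pituitary libraries, all 100 were called higher, against 35.2% of all genes. The groups then overlapped for none of the 100, while 44.1% of the genes above 1 CPM in any of these libraries were higher without overlap.

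The only exception was ENSBTAG00000030258. In the testes of low plane calves it ranged from 2.93 to 108 CPM with a median of 12.96 CPM, and in the anterior pituitary from 0.909 to 20.8 CPM with a median of 14.3 CPM. The groups overlapped, with a log2 fold change of 1.49 ± 0.72 (SE) and an adjusted p of 0.0813 by the edgeR test. The 5 testes libraries of the low plane that stand apart had 2.93 to 16.4 CPM, and the other 3 had 101 to 108 CPM. With these and the other libraries that stand apart left out, its log2 fold change was 2.43, with an adjusted p of 4.62e-08.

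The largest difference from the anterior pituitary was that of ENSBTAG00000019870, in both tissues. On the low plane it was 18.8 to 101 CPM in the 10 arcuate nucleus libraries (median 44.9 CPM) and 39.9 to 89.1 CPM in the 8 testes libraries (median 79.7 CPM), and at most 0.196 CPM in the 10 anterior pituitary libraries. Neither tissue overlapped with the anterior pituitary, and the log2 fold changes were 8.48 ± 0.41 (SE; adjusted p = 6.57e-16, edgeR) for the arcuate nucleus and 8.91 ± 0.42 (SE; adjusted p = 3.085e-16, edgeR) for the testes. They were 8.65 and 8.99 without the libraries that stand apart. On the high plane its arcuate nucleus values were uneven, from 2.08 CPM in library C60 to 38.1 CPM.

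The next largest in the arcuate nucleus was ENSBTAG00000001139, and the libraries split sharply in it. It had 152 to 314 CPM in 8 of the 10 low plane arcuate nucleus libraries, but 1.27 CPM in C6 and 9.03 CPM in C33. The anterior pituitary libraries had 0.242 to 1.25 CPM, all below every arcuate nucleus library. The log2 fold change was 7.92 ± 0.92 (SE; adjusted p = 2.504e-08, edgeR), and 8.08 without the libraries that stand apart. Next largest in the testes was ENSBTAG00000006231, with 115 to 376 CPM in the testes and 0.286 to 1.003 CPM in the anterior pituitary, a log2 fold change of 8.01 ± 0.34 (SE; adjusted p = 2.993e-17, edgeR). It was 8.73 without the libraries that stand apart. The testes and anterior pituitary values of this gene did not overlap.

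The most abundant of the 100 in the arcuate nucleus of low plane calves was ENSBTAG00000010551, at 812 to 1723 CPM with a median of 1370 CPM. It was also high in the testes, at 424 to 1312 CPM, and reached 145 CPM in the anterior pituitary library A47 against 13.1 to 53.8 CPM in the other 9. The most abundant in the testes by mean level was ENSBTAG00000015074, at 1165 CPM, although other genes had higher medians there, up to 1066 CPM. This gene ranged from 71.6 to 2801 CPM with a median of 553 CPM. Its low values again lay in the libraries that stand apart, with 71.6 to 715 CPM in 5 of them and 2411 to 2801 CPM in the other 3.

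The arcuate nucleus and the testes themselves differed for many of the genes on the low plane. By the edgeR test, 15 genes were called higher in the testes and 32 lower, and 53 were not called. Over all genes tested 32.1% were called higher and 30.4% lower, so the share called lower was near the background and the share called higher below it. The selection had kept these tissues within 4-fold of each other on the high plane. The difference was over 2-fold for 10 of the genes called higher and 23 of those called lower, and the log2 fold change ran from −3.12 to 2.61 with a median of −0.46. The groups did not overlap for 5 genes higher in the testes and 3 lower, against 16.8% and 10.0% of all genes. Without the libraries that stand apart, 21 genes were called higher and 34 lower, against 37.9% and 36.1% of all genes, and the median log2 fold change was −0.14. The groups, then 3 and 8 libraries, did not overlap for 20 genes higher in the testes and 15 lower, against 35.7% and 25.5% of the genes above 1 CPM in any of these libraries. With library totals in place of TMM factors, 15 were called higher and 23 lower, against 5696 and 4300 of all 15808 genes tested.

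The gene with the largest excess in the testes was ENSBTAG00000015307. It had 49.8 to 182 CPM in the testes of low plane calves (median 94.5 CPM) and 9.34 to 22.8 CPM in the arcuate nucleus (median 13.9 CPM), with no overlap. The log2 fold change was 2.61 ± 0.28 (SE; adjusted p = 4.197e-09, edgeR), and 2.14 without the libraries that stand apart. Next came ENSBTAG00000014906, with 223 to 537 CPM in the testes and 44.1 to 77.3 CPM in the arcuate nucleus, also without overlap, and a log2 fold change of 2.34 ± 0.32 (SE; adjusted p = 2.498e-07, edgeR), or 1.95 without the libraries that stand apart.

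In the opposite direction, ENSBTAG00000011587 had 0.504 to 3.67 CPM in the testes (median 1.57 CPM) and 4.96 to 23.6 CPM in the arcuate nucleus (median 14.4 CPM). The groups did not overlap, and the log2 fold change was −3.12 ± 0.46 (SE; adjusted p = 9.587e-07, edgeR), and −2.59 without the libraries that stand apart. For ENSBTAG00000014470 the testes libraries had 0.144 to 9.43 CPM with a median of 0.455 CPM, and the arcuate nucleus libraries 0.231 to 30.5 CPM with a median of 11.7 CPM. These groups overlapped, since library C6 held 0.231 CPM and testes library B31 held 9.43 CPM. Its log2 fold change was −3.09 ± 0.85 (SE; adjusted p = 0.002366, edgeR). It was −4.49 without library B31 alone, and −2.19 without the libraries that stand apart.

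The 100 genes as a group were lower in the libraries that stand apart in the arcuate nucleus and the testes. Their summed level was 6681 and 6703 CPM in the 2 such libraries of the arcuate nucleus, against 8318 to 12918 CPM in the other 18. In the testes it was 5999 to 9334 CPM in the 6 libraries that stand apart and 11662 to 15065 CPM in the other 12, with no overlap. In the anterior pituitary the ranges overlapped, at 320 to 634 CPM in 5 libraries and 385 to 624.7 CPM in 14. The 2 arcuate nucleus libraries that stand apart are of the low plane, as are 5 of the 6 in the testes. The others include high plane libraries, in which the genes were chosen for high values in these tissues. The choice by itself can thus make the libraries that stand apart look lower there. What sets these libraries apart was not tested.

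**Figure D2:**
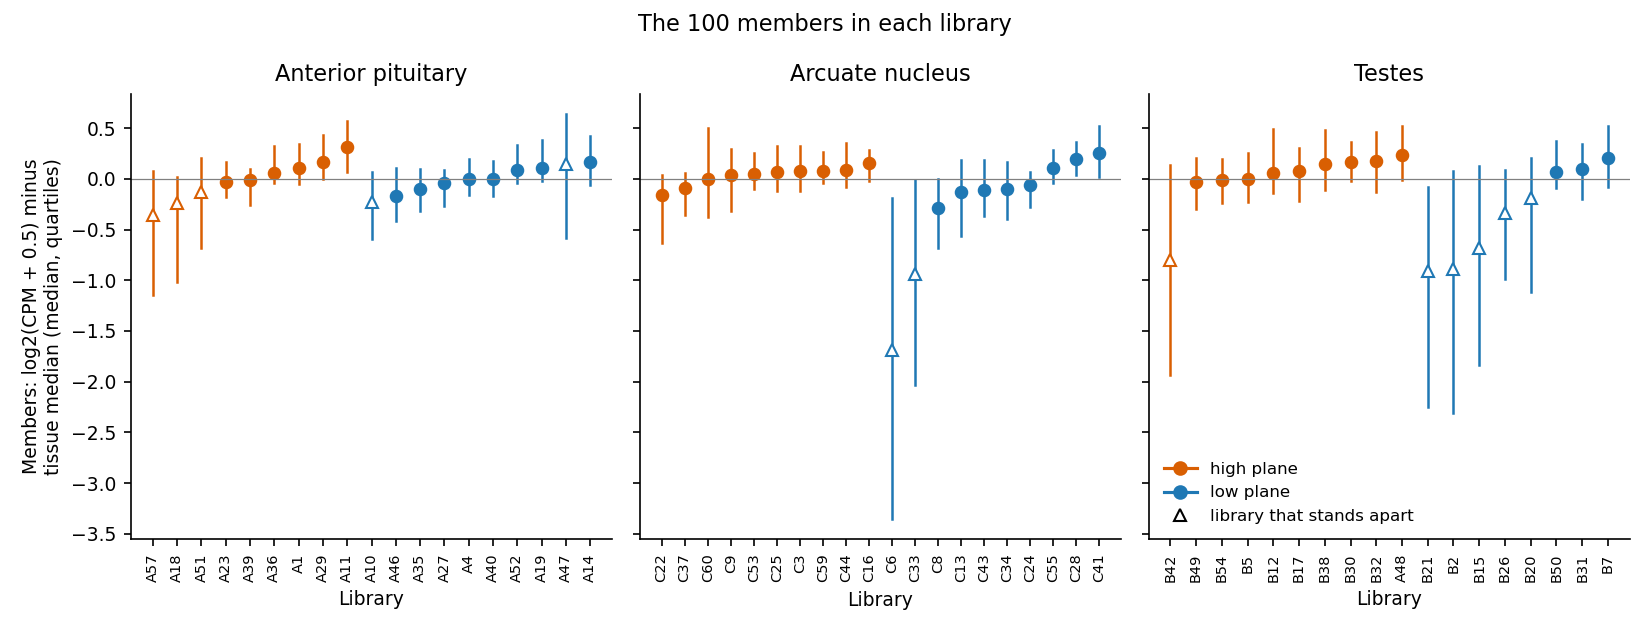
Deviation of the 100 genes from their median in the tissue, on the scale of log2(CPM + 0.5), for each of the 57 libraries, with the median (symbol) and the quartiles (line) over the genes. Open triangles are the 13 libraries that stand apart, orange is the high plane and blue the low plane. The medians of C6 and C33 lie at −1.69 and −0.93, and those of the 6 testes libraries that stand apart between −0.91 and −0.19.

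The difference was uneven among the genes. On the scale of log2(CPM + 0.5), the mean of the libraries that stand apart minus that of the others had a median of −1.27 over the 100 genes in the arcuate nucleus, from −5.82 to 1.80, and of −0.81 in the testes, from −4.41 to 1.06. The difference was below −1 for 55 of the 100 genes in arcuate tissue and for 48 in testes. Of all genes above 3 CPM, 41% were below −1 in arcuate tissue and 30.4% in testes. The counts include 46 genes that were below −1 in both tissues, of the 55 and of the 48. Of the 11706 genes above 3 CPM in both tissues, 29.99% were below −1 in both. Another 40 genes stayed within 1 of 0 in both tissues. In the anterior pituitary 24 of the 100 genes were below −1, while 35.2% of all genes above 3 CPM there were. Only 36 of the 100 exceeded 3 CPM in that tissue, in the libraries that do not stand apart, and 16 of these 36 were below −1. Below −1 in all 3 tissues were 22 of the 100 genes, and 14 of these 36, against 29.1% of the genes above 3 CPM in all 3 tissues. The comparison uses both diets, and the high plane libraries in it are those of the selection. In the arcuate nucleus and testes most of the libraries that stand apart are of the low plane, so the choice can add to the lower values.

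**Figure D3:**
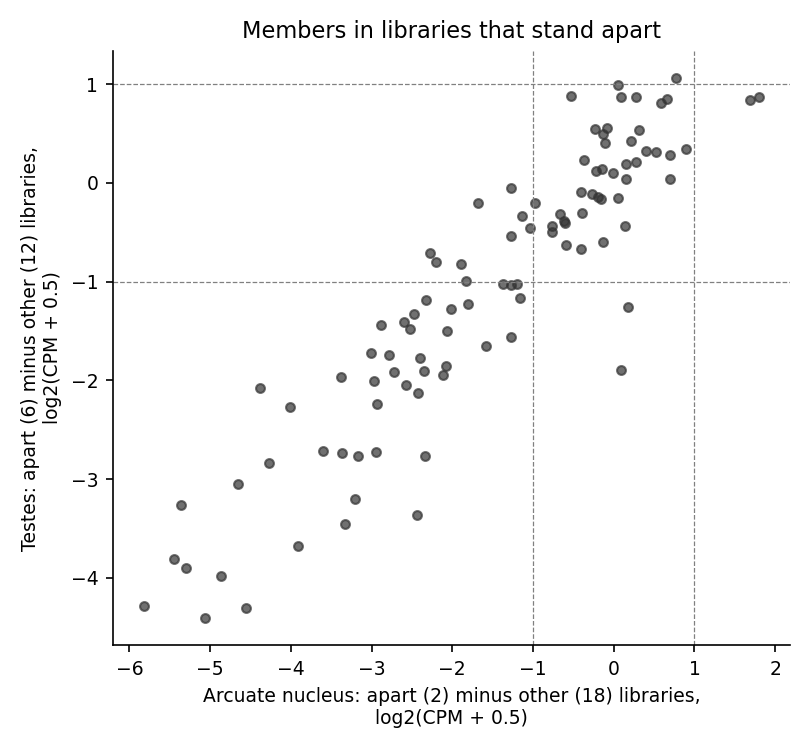
Each point is 1 of the 100 genes, placed by the difference between the libraries that stand apart and the others in the arcuate nucleus (horizontal, 2 against 18 libraries) and the testes (vertical, 6 against 12), both as means of log2(CPM + 0.5). The 46 genes in the lower left, beyond both dashed lines at −1, were lower in both tissues, and ENSBTAG00000001139 is the leftmost point at −5.82 and −4.28.

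These differences are large for single genes. In the testes ENSBTAG00000001139 had 5.54 to 55.5 CPM in the 6 libraries that stand apart and 226 to 392 CPM in the other 12. The gene ENSBTAG00000015074 had 6.57 CPM in C6 and 38.5 CPM in C33, against 458 to 1239 CPM in the other 18 arcuate nucleus libraries. In contrast ENSBTAG00000019870 had 45.1 and 46.98 CPM in C6 and C33, in the middle of the other low plane libraries, and 58.2 to 89.1 CPM in the 6 testes libraries that stand apart. Among libraries that do not stand apart, the median SD of the 100 genes on the scale of log2(CPM + 0.5) was 0.399 on the high plane and 0.452 on the low plane in the arcuate nucleus, against 0.262 and 0.270 for all genes above 3 CPM, and 0.342 and 0.321 in the testes, against 0.216 and 0.176.

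**Figure D4:**
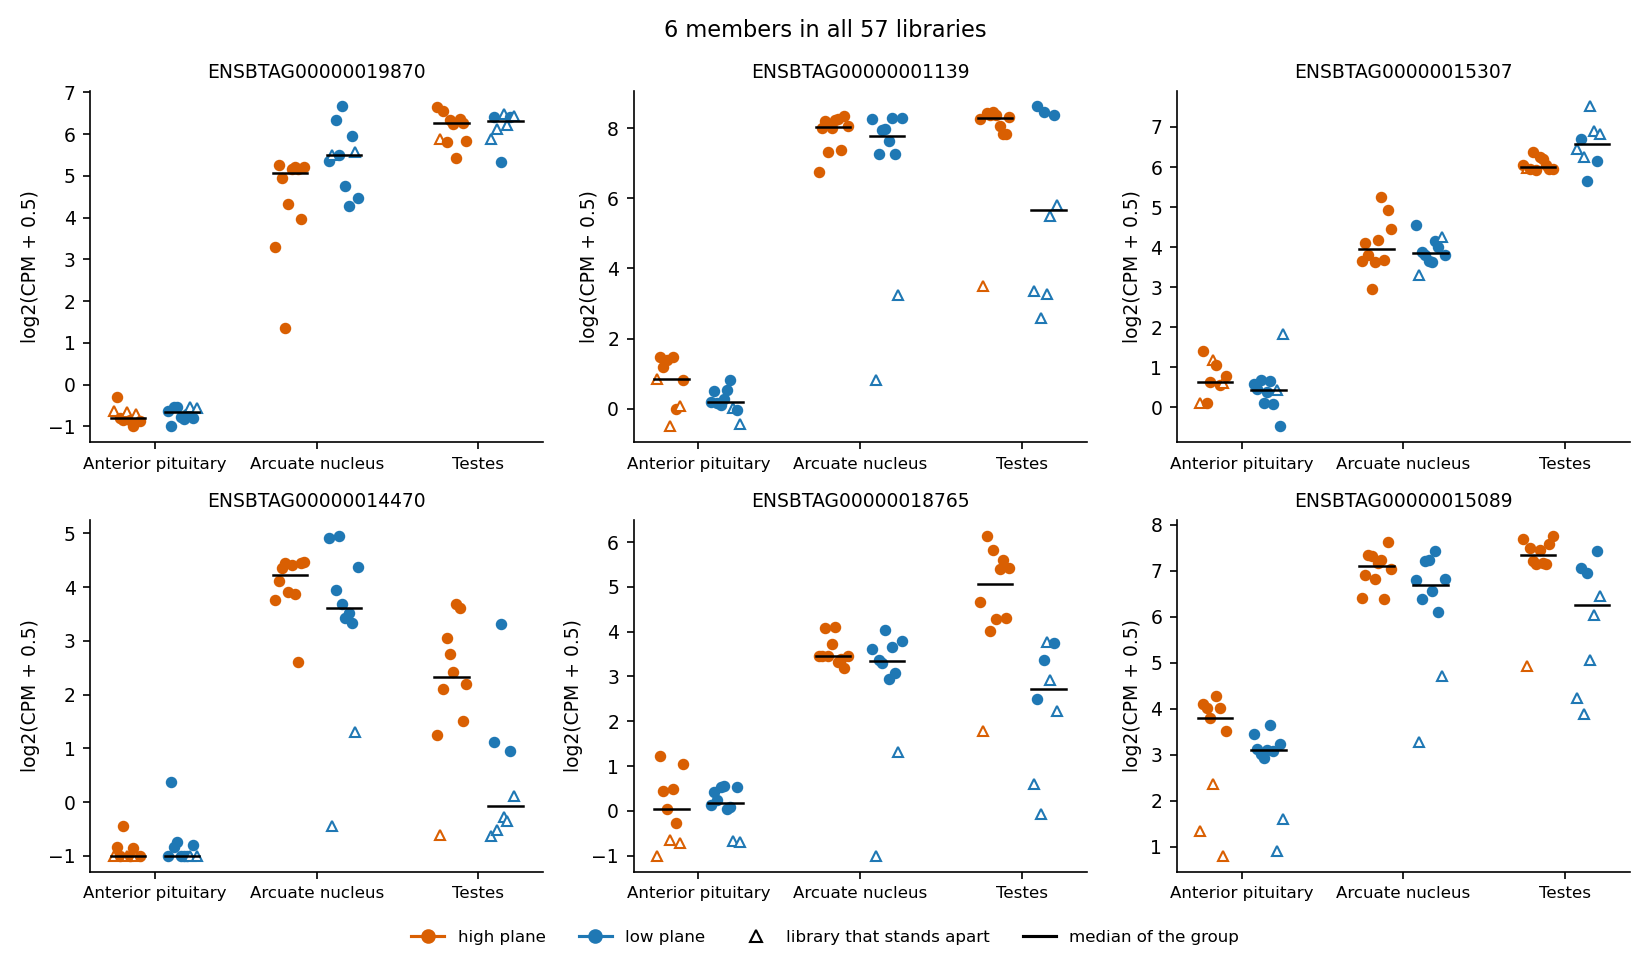
Level of 6 of the genes, as log2(CPM + 0.5), in every library, by tissue and by diet (orange high plane, blue low plane); open triangles are libraries that stand apart and black bars are group medians. In ENSBTAG00000001139 the triangles of the arcuate nucleus and testes lie below all filled circles of their tissue, while in ENSBTAG00000019870 they lie among them.

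The study set the planes of nutrition against each other within each tissue. For the selected genes this comparison shares the high plane libraries with the selection. Since genes were kept for high values in the arcuate nucleus and testes and low values in the anterior pituitary on the high plane, the choice by itself can make the low plane look lower in the former and higher in the latter. Fold changes below are of the low plane over the high plane.

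In the arcuate nucleus no gene among the 100 was called in either direction by edgeR. The same was true of all 14757 genes tested, with 0% called higher, 0% called lower and a smallest adjusted p of 0.477. An unadjusted p below 0.05 was reached by 5 of the 100 genes and by 1464 of all 14757. The exact test, DESeq2 and limma voom with quality weights also called none of the 100. The log2 fold changes ran from −0.73 to 1.12 with a median of −0.25, against −0.01 for all genes, and 70 of the 100 were below 0. Without C6 and C33 the median was −0.08, and 70 of the 100 were again below 0.

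In the anterior pituitary only 61 of the 100 genes had enough reads to be tested. None was called in either direction by edgeR, where 0.0694% of all genes were called higher and 0.493% lower. DESeq2 called 1 gene lower and limma voom with quality weights 5, against 1.25% and 3.98% of all genes. Without the 5 libraries that stand apart, 7 of 65 genes tested were called lower on the low plane and none higher, against 2.95% of all genes called lower. Their log2 fold changes lay between −1.78 and −0.67. The median of the 65 was −0.15, against 0.02 for the 61 genes with all libraries. With a library score as covariate, which stands for the variation that libraries of the other tissues share, 4 genes were called lower, against 3.97% of all genes, and 3 of them were among the 7. The 1 gene called by DESeq2 was not among the 7, and 4 of the 5 called by limma voom were.

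The gene with the smallest p among the 7 was ENSBTAG00000015089. In the 6 high plane libraries that do not stand apart it had 10.8 to 19.0 CPM with a median of 15.6 CPM, and in the 8 low plane libraries 7.15 to 12.03 CPM with a median of 8.16 CPM. The groups overlapped in a narrow range, with a log2 fold change of −0.80 ± 0.13 (SE; adjusted p = 0.00273, edgeR). The libraries that stand apart had 1.24 to 4.67 CPM on the high plane and 1.37 to 2.54 CPM on the low plane, and with them the log2 fold change was −0.59 ± 0.44 (SE; adjusted p = 0.910, edgeR). In the same libraries that do not stand apart, ENSBTAG00000007429 had 3.84 to 6.75 CPM on the high plane and 2.52 to 4.63 CPM on the low plane, and its log2 fold change was −0.67 ± 0.15 (SE; adjusted p = 0.0166, edgeR). With all libraries it was −0.42 ± 0.72 (SE; adjusted p = 0.953, edgeR), and limma voom with quality weights on all libraries gave an adjusted p of 0.115. Both genes were picked after these values were seen.

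In the testes 2 of the 100 genes were called higher and 8 lower on the low plane by edgeR, against 4.75% and 2.16% of all 15310 genes tested. The log2 fold changes ran from −2.41 to 1.07 with a median of −0.46, against −0.01 over all genes, and 69 of the 100 were below 0. Without the 6 libraries that stand apart, which leaves 9 high plane and 3 low plane libraries, no gene was called, either among the 100 or among all 15935 tested (0% higher and 0% lower). The median log2 fold change was then −0.01, and 52 genes were below 0. With the library score as covariate 3 genes were called higher and 6 lower, against 1.65% and 4.37% of all genes, of which 1 and 2 were among those called without it. By limma voom with quality weights 13 were called higher and 52 lower, against 35.7% and 37.1% of all genes. The 2 and 8 genes called above were called again, in the same directions, by limma voom, DESeq2 and edgeR's exact test. All of these used the same libraries, those that stand apart included. Single libraries also decided the edgeR counts: leaving out 1 at a time gave from 0 genes called higher (without B2 or B20) to 6 (without B42), and from 0 called lower (without B5, B38, B21, B2 or B20) to 14 (without B42). The share of all genes called in each of these fits is not given, so the counts cannot be set against it. Since diet and standing apart go together in the testes, their parts in these differences cannot be told apart.

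**Figure D5:**
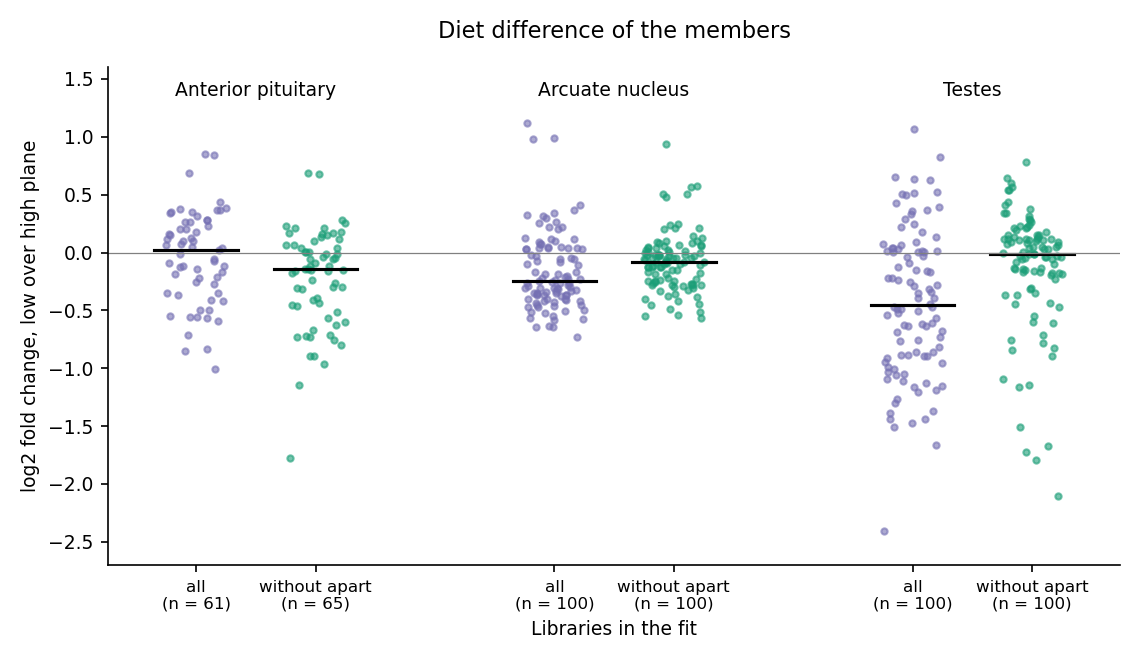
Log2 fold change of the low over the high plane for each of the genes tested, by tissue, with all libraries (purple) and without the libraries that stand apart (green); black bars are medians and n is the number of genes tested. In the testes the median moves from −0.46 to −0.01, and in the anterior pituitary from 0.02 to −0.15.

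The genes called higher on the low plane in the testes were ENSBTAG00000046348 and ENSBTAG00000006844. The first had 6.64 to 22.9 CPM on the high plane (median 12.3 CPM) and 14.3 to 46.4 CPM on the low plane (median 25.6 CPM), and its log2 fold change was 1.07 ± 0.24 (SE; adjusted p = 0.0230, edgeR). The second had 6.31 to 15.9 CPM on the high plane (median 10.1 CPM) and 13.99 to 25.1 CPM on the low plane (median 19.5 CPM), and its log2 fold change was 0.83 ± 0.19 (SE; adjusted p = 0.0232, edgeR). In both genes the groups overlapped. Without the libraries that stand apart the log2 fold changes were 0.54 and 0.65, with adjusted p of 0.355 and 0.213 by edgeR.

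Of the 8 genes called lower, ENSBTAG00000018598 had the smallest p. It had 50.8 to 126 CPM on the high plane (median 80.2 CPM) and 38.6 to 71.4 CPM on the low plane (median 49.04 CPM), with overlap, and its log2 fold change was −0.81 ± 0.19 (SE; adjusted p = 0.0254, edgeR). It moved little without the libraries that stand apart, to −0.71 with an adjusted p of 0.212 by edgeR. Next was ENSBTAG00000047957, with 30.5 to 154 CPM on the high plane (median 95.6 CPM) and 14.04 to 63.9 CPM on the low plane (median 37.2 CPM), and its log2 fold change was −1.30 ± 0.32 (SE; adjusted p = 0.0272, edgeR). Without those libraries this was −0.83, with an adjusted p of 0.197 by edgeR. Not all of the 8 moved toward 0 without them. In a further gene the log2 fold change went from −1.26 to −1.73 (adjusted p = 0.0928, edgeR). In another it went from −1.48 to −1.79 (adjusted p = 0.120, edgeR). In the rest it moved toward 0, also in the gene with the largest change, from −2.41 to −2.11 (adjusted p = 0.0989, edgeR).

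Whether the diet difference itself differed between the testes and the arcuate nucleus was tested over all 57 libraries as an interaction. This test too shares the high plane libraries with the selection, which kept the levels of these tissues within 4-fold of each other there. The choice by itself can thus add to a difference between the diet effects. None of the 100 genes was called by edgeR, against 0.740% of all 16476 genes in either direction. DESeq2 called none either. Without the libraries that stand apart 2 genes were called, both with a lower diet fold change in the testes, against 0.841% of all genes in that direction. These were ENSBTAG00000019347 and ENSBTAG00000018765, named after their values were seen. For ENSBTAG00000018765 the high plane testes libraries, B42 left out, had 15.7 to 70.0 CPM with a median of 41.4 CPM, and the 3 low plane libraries 5.18, 9.78 and 12.9 CPM, with no overlap. In the arcuate nucleus the libraries that do not stand apart had 8.62 to 16.6 CPM on the high plane and 7.20 to 15.8 CPM on the low plane, which is nearly the same range. The difference between the diet effects was −1.93 ± 0.43 on the log2 scale (SE; adjusted p = 0.0140, edgeR), and with all libraries −2.01 ± 0.70 (SE; adjusted p = 0.201, edgeR).

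For ENSBTAG00000019347 the testes values without the libraries that stand apart were 29.5 to 79.9 CPM on the high plane and 13.5, 21.4 and 22.6 CPM on the low plane, again with no overlap. Its arcuate nucleus values were 9.03 to 23.6 CPM on the high plane and 11.02 to 40.6 CPM on the low plane. The difference between the diet effects was −1.84 ± 0.40 (SE; adjusted p = 0.0101, edgeR) without those libraries and −1.26 ± 0.48 (SE; adjusted p = 0.268, edgeR) with them. Library B15, a low plane testes library that stands apart, had 68.3 CPM of this gene, inside the range of the high plane.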

How the data were processed

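Single-end mRNA sequencing libraries of 3 bovine tissues were analysed from the whole-number counts of reads per Ensembl gene that the authors deposited for each of 57 libraries, without normalization. The submitters' processing notes name CASAVA 1.4, STAR, HTSeq and edgeR. Other versions, the genome build, the annotation and the strand setting were not given in the sources used here. The authors had removed 3 libraries with few reads. Samples were grouped by their tissue and diet labels. Library numbers occur once in the series and tie no libraries to a calf, so no pairing was used. By the study's methods each calf gave 1 library per tissue, so tests between tissues and of the interaction treat tissues of shared calves as independent.

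Members were chosen by the ratio given above. The members and lists were chosen with earlier results of these data known. Levels are CPM over library totals. Tissues were compared over the 28 low plane libraries in 1 fit, diets within each tissue, and the difference between diet effects over all libraries. All used edgeR 4.0.16 in R 4.3.3, with its default filter on low counts, TMM factors, the quasi-likelihood test and Benjamini-Hochberg adjustment over all genes tested, with a threshold of 0.05. The SE was derived from the fold change and the test statistic. Alternatives were DESeq2 1.42.0, edgeR's exact test, limma 3.58.1 voom with quality weights, other filters, no TMM factors, log2 total count or a library score as covariate, and each library left out. The score averages log2 CPM, with a prior count of 2, over 200 genes, members left out, with the largest slopes on the first of the scaling dimensions (500 genes) in the other 2 tissues. Leaving out the 13 libraries that stand apart was added after the data were seen. The fits were tested on simulated data with 200 changed genes, 1 mean level per gene and 1 fixed spread. No simulated library was made to stand apart, so these tests do not cover such libraries.

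None of the 24616 identifiers could be matched to a symbol, since none of the 37063 genes of the reference table for the assembly ARS-UCD2.0 carries an Ensembl identifier. The planned lists of cell type markers and of gene families were therefore not used, no sequences are shown, and at most 2 identifiers are named per direction in a comparison. The planned rule named the 15 genes with the largest ratio, the genes at the limit, those called for diet (up to 8 per tissue), the 5 most abundant in each tissue and any gene going against the selection. Those named are the first of these, plus the genes with the largest fold changes in each tissue comparison and 4 genes named after their values were seen, those of the anterior pituitary diet comparison and the interaction. Genes with near-identical copies could not be singled out without names. Depth limits low levels most: in the shallowest library a gene with no read may still be at 3.34 CPM (3 counts, counting error only), in the others at 0.435 CPM at most.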

Additional observations from a re-analysis of the deposited data

Results flagged for a closer look

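The summed level of the 100 genes and the level of each named gene were checked in each of the 6 groups of a tissue and a diet for a library far from the others of its group (Dixon's criterion at 95%). Of 120 groups checked, 21 values lay apart, and 12 of the 21 were in libraries that stand apart over all genes. For independent and normally spread values chance gives about 1 in 20 groups, or 6 of 120. CPM values need not be normally spread, the groups share libraries, and many of the genes were named for large differences. The 21 can therefore not be set against the 6. No explanation of these values was tested.

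Among high plane testes libraries, B42 was lowest in the summed level of the 100 genes (7631 CPM, next 11662 CPM) and in ENSBTAG00000001139 (10.8 CPM, next 226 CPM), ENSBTAG00000030258 (3.90 CPM, next 67.3 CPM), ENSBTAG00000010551 (570 CPM, next 851 CPM), ENSBTAG00000015074 (121 CPM, next 1771 CPM), ENSBTAG00000015089 (29.95 CPM, next 142 CPM) and ENSBTAG00000007429 (0.9001 CPM, next 28.8 CPM). On the low plane of the testes, library B31 was high in ENSBTAG00000014470 (9.43 CPM, next 1.66 CPM) and B15 in ENSBTAG00000019347 (68.3 CPM, next 30.4 CPM).

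In the anterior pituitary, A47 was high on the low plane in ENSBTAG00000015307 (3.03 CPM, next 1.11 CPM) and ENSBTAG00000010551 (145 CPM, next 53.8 CPM), A46 in ENSBTAG00000011587 (0.381 CPM, next 0.182 CPM) and A52 in ENSBTAG00000014470 (0.789 CPM, next 0.0953 CPM). On the high plane, A11 was high in ENSBTAG00000019870 (0.315 CPM, next 0.145 CPM) and ENSBTAG00000014906 (27.5 CPM, next 13.8 CPM), A23 in ENSBTAG00000014470 (0.235 CPM, next 0.0629 CPM) and A51 in ENSBTAG00000046348 (1.02 CPM, next 0.290 CPM), while A57 was low in ENSBTAG00000018598 (3.48 CPM, next 4.07 CPM).

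In the arcuate nucleus, C44 was high in ENSBTAG00000014906 on the high plane (98.8 CPM, next 72.6 CPM), C41 was high in ENSBTAG00000019347 on the low plane (40.6 CPM, next 24.1 CPM), and the shallowest library, C22, was low in ENSBTAG00000014470 (5.56 CPM, next 13.05 CPM).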

How the results depend on the processing

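The selection kept 71 of the 100 genes when its rule was applied to the low plane libraries, and 90 to 99 under the other alternatives. The tissue comparisons kept their counts within 1.5 times under all alternatives run, and leaving out 1 library at a time gave 100 genes called higher in the arcuate nucleus than in the anterior pituitary, 97 to 99 in the testes than in the anterior pituitary, and 14 to 17 higher and 27 to 34 lower in the testes than in the arcuate nucleus. None of the 100 genes was called for diet in the arcuate nucleus under any alternative run. In the anterior pituitary the count lower on the low plane was 1 by DESeq2, 5 by limma voom with quality weights, 4 with the library score and 7 without the libraries that stand apart. In the testes the counts higher and lower on the low plane were 13 and 52 by limma voom (35.7% and 37.1% of all genes), 0 and 0 with the log2 total count as covariate, and 0 and 0 without the libraries that stand apart. The count higher was 5 without TMM factors, and the count lower 5 without a filter. Leaving out 1 library gave 0 to 6 genes higher and 0 to 14 lower there: the count higher moved by over 1.5 times without B42, B21, B2, B31, B7 or B20, and the count lower without 14 of the 18 libraries, the exceptions being B30, B54, B15 and B50. For the testes fits with the log2 total count, no TMM factors, no filter or 1 library left out, the share of all genes called is not given. Those counts can therefore not be set against the calls over all genes. The interaction had 2 genes lower without the libraries that stand apart. Of the values of single named genes under alternatives, 429 stayed on their side of the threshold, 31 fell short of it, 9 newly passed it, and none changed sign. The causes of these changes were not tested. No paired analysis was possible because library numbers are unique and name no calf. Low levels in the anterior pituitary are limited by depth.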
